A study of Mus musculus with 4 samples.

Results

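The transcripts of 36 cell cycle genes were followed in heart and skeletal muscle of mice made deficient in MnSOD in these tissues. The genes were taken by symbol and fell into 4 G1 cyclins, 11 genes of DNA replication and nucleotide supply, and 21 genes of mitosis. Of the 36 genes, 35 had a probe set named for 1 gene alone in the platform annotation, 84 probe sets in all, of 45101 on the array; no such probe set was listed for Ccnb1. The study hybridised 4 mouse oligonucleotide arrays, 1 for each of the 2 genotypes in each of the 2 tissues. In d/d mice, called knockout here, both copies of the MnSOD gene, Sod2, had been deleted by an MCK-Cre transgene, whose promoter is that of muscle creatine kinase and is active in striated muscle cells; other cells of these tissues would keep the floxed gene. The f/f mice, called control, were homozygous for the floxed Sod2 gene from which the deleted one was made. The labels give no age, no sex, no muscle name and no number of animals per array. With 1 array a group there was no spread between animals, so every difference between knockout and control below compares 2 arrays and has no replicate check.

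D-type cyclins act in G1, where they activate CDK4 and CDK6, and E-type cyclins act with CDK2 at entry into S phase. The MCM proteins form the helicase that opens DNA at replication origins, PCNA is the sliding clamp of the polymerases, and ribonucleotide reductase, thymidylate synthase and thymidine kinase supply deoxynucleotides. Mitotic genes encode the CDK1 kinase and its cyclins, the Aurora and Polo kinases, the spindle checkpoint, kinesins and the centromere, and their transcripts peak in G2 and M. Adult heart muscle and skeletal muscle fibres rarely divide, so in these tissues such transcripts are usually scarce. In bulk RNA, fewer cells of a type and less RNA per cell cannot be told apart.

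Promoters of the 6 members with the highest knockout to control ratio in heart, both arrays above background, are shown because such genes share textbook elements: the CHR (TTTGAA), which recruits the DREAM and MYB-MuvB complexes, the CCAAT box (CCAAT) bound by NF-Y, and E2F sites, searched as TTTCCCGC, TTTGGCGC, TTCCCGCC and TTGGCGCC. Members without an entry in the RefSeq promoter table (GRCm38.p6) were passed over, among them Ccnd1. Each sequence runs 5′ to 3′ from 250 bases before to 50 bases after the annotated start, and capitals mark a match to any of these words on either strand, the E2F words overlapping each other in places.
Rrm2, chr12:24708004-24708303, plus strand: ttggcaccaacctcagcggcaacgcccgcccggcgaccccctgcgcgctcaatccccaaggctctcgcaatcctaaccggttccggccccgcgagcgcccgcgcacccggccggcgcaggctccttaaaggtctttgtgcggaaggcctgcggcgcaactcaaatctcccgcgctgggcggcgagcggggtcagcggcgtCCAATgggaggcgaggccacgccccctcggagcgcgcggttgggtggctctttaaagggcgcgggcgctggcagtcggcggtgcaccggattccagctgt
Mcm5, chr8:75109259-75109558, plus strand: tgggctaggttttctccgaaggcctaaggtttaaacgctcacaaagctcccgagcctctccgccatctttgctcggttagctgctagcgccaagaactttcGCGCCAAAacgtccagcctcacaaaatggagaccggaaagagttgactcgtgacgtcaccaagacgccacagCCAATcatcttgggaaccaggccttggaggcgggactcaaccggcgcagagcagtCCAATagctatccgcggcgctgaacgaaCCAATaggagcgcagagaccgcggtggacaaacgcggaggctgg
Mki67, chr7:135716330-135716629, minus strand: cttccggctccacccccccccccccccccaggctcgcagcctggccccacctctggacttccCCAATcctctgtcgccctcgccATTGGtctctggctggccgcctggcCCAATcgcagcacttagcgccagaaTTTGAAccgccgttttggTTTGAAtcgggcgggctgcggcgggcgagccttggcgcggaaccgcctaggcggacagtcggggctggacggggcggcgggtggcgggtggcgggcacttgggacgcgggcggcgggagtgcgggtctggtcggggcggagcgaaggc
Cenpa, chr5:30666636-30666935, plus strand: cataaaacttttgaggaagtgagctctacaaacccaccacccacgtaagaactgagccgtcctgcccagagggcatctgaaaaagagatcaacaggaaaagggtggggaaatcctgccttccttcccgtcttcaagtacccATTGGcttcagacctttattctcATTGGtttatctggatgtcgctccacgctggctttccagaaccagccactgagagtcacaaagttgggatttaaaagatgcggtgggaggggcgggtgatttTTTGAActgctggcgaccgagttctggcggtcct
Mcm3, chr1:20820263-20820562, minus strand: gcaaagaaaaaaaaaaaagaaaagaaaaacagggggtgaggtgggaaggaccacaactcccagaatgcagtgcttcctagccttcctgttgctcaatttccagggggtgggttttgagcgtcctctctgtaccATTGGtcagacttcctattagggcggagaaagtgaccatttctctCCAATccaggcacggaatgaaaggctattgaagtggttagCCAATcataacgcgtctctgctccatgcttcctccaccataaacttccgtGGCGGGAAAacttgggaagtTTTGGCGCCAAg
Cdk1, chr10:69352863-69353162, minus strand: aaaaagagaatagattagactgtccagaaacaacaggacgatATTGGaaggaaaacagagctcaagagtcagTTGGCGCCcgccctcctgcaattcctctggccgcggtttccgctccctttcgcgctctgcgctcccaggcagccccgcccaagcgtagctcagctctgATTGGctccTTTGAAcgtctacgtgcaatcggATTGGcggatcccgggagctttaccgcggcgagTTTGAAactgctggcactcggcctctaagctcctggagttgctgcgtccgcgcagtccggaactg

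The Mki67 window held CHR words that began at -116 and -98 from the start, and the Cdk1 window held them at -71 and -15. In the Cenpa window the CHR began at position 17 after the start. The Mcm5 and Mcm3 windows held E2F words and CCAAT boxes but no CHR, and the Rrm2 window held a single CCAAT box, at -50. Over the 31 windows of the 29 members in the table, a CHR occurred in 14 of 19 windows of mitosis genes (73.7%) and in 1 of 11 of replication genes (9.09%), against 17.9% of all 32851 windows. CCAAT occurred in 17 of 19 mitosis windows (89.5%) and 9 of 11 replication windows (81.8%), against 37.4% of all windows, and an E2F word in 2 of 19 (10.5%) and 5 of 11 (45.5%), against 3.77%. A match is a description of letters and does not show that a factor bound there.

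Signals are given as intensities scaled to a common mean per array, and those under 7.51 were set to that floor, which stood in for background because the values carry no detection calls. Each gene is represented by its brightest probe set unless others are named. Summed intensities were taken before the floor was applied. The 2 tissues carried their own markers: a summed intensity of 49842.5 in knockout heart and 50215 in control heart for 10 cardiomyocyte genes, and of 84502 in knockout muscle and 78533 in control muscle for 10 fast skeletal muscle genes. On the 4 probe sets of Sod2 the knockout minus control log2 difference lay between -1.22 and -0.21 in heart and between -0.44 and 0.06 in muscle, and the sources used here do not place them relative to the deleted part. As a technical yardstick, probe sets of 1 gene differed with an SD of 0.388 (log2) in heart and 0.40 in muscle.

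Many mitotic transcripts were near background, while most replication genes and the D-type cyclins were not. Of the 35 members, 30 were above the floor in knockout heart and 29 in control heart, and 20 in knockout muscle and 24 in control muscle. Of all 18193 genes, 68.6% were above it in knockout heart, 71.6% in control heart and 71.0% on each muscle array. Ttk, a spindle checkpoint kinase, and Tyms, thymidylate synthase, were at the floor on all 4 arrays. They made up 5.71% of the members, against 15.5% of all genes at the floor throughout. Another 10 members stayed under 15.0, which is 2 times the floor, on every array, so 12 of 35 (34.3%) were near background throughout, against 33.6% of all 18193 genes. These 12 comprised 10 of the 20 mitosis genes, 1 of the 11 replication genes and 1 G1 cyclin. Conversely, 7 replication genes, 2 G1 cyclins and 1 mitosis gene, Cdc20, were above 15.0 on all 4 arrays. That was 28.6% of the members, against 49.5% of all genes. Over all probe sets of the members, 19 of 84 were at the floor on every array and 31 were above it on every array. Among all 34945 probe sets with 1 symbol, these numbers were 6710 and 18319.

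**Figure D1:**
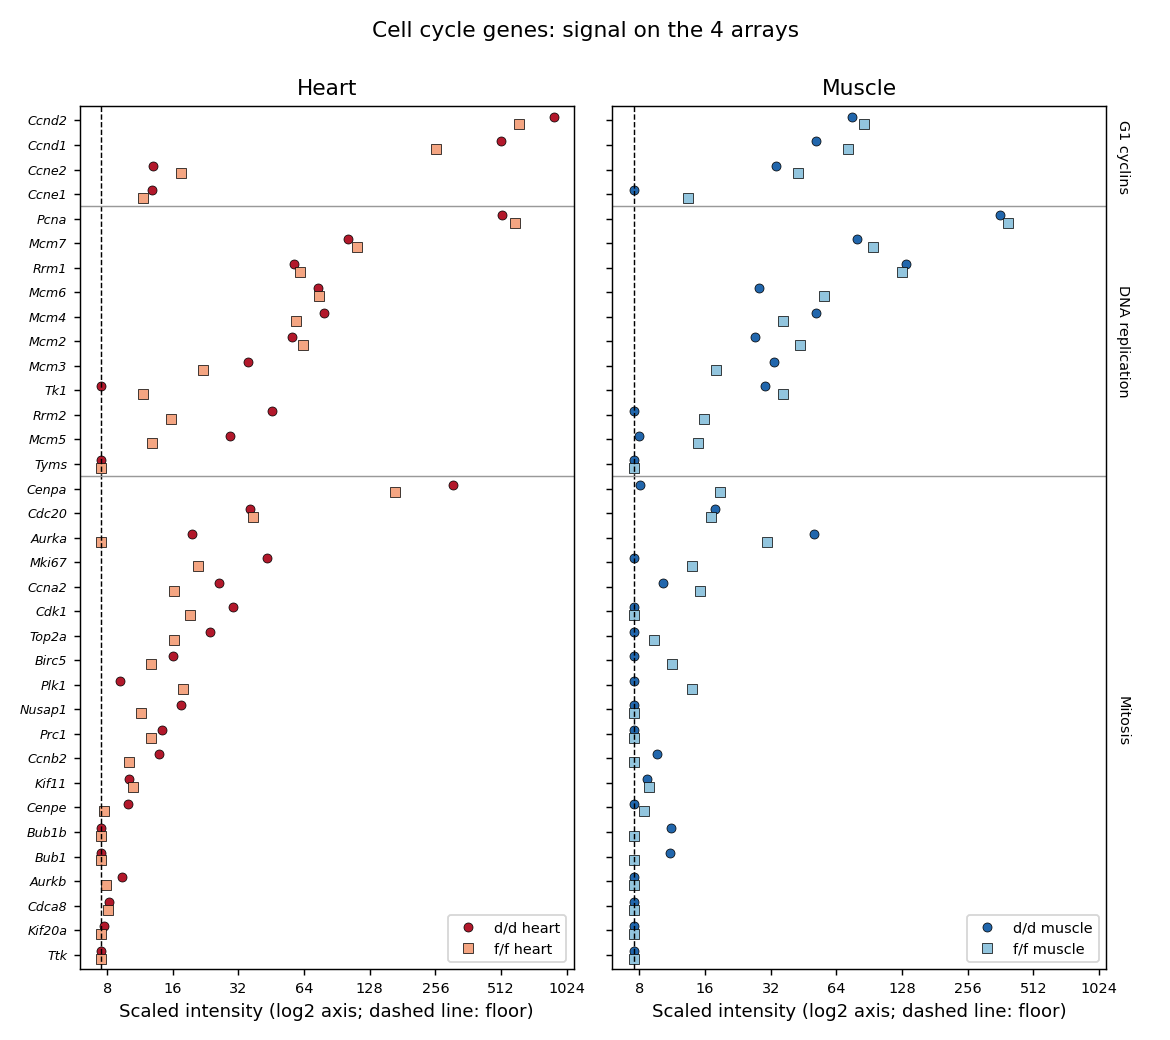
Scaled intensity (log2 axis) of the brightest probe set of each of 35 members, knockout (d/d) as circles and control (f/f) as squares, with heart on the left and muscle on the right; the dashed line is the floor of 7.51 and signals under it are drawn on it. Ccnd2, Pcna, Ccnd1 and, in heart, Cenpa lie far from the floor, and many mitosis genes lie close to it, more of them in muscle than in heart.

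In heart, the mitosis genes and D-type cyclins were mostly higher in the knockout than in the control. The replication genes were split, with 4 higher and 6 lower. Most clearly higher were cyclin D1, cyclin D2 and the ribonucleotide reductase subunit Rrm2, each of which was higher on all of its probe sets. Of 31 members measured, meaning above the floor on at least 1 heart array, 4 were at least 2-fold higher in knockout heart (12.9%), against 3.94% of the 13836 genes measured, and 0 were at least 2-fold lower, against 4.22%. The 4 were Rrm2, Aurka, Mcm5 and Mki67. The median log2 difference over the 31 was 0.34, against -0.05 over all genes measured, and it was 0.35 over the 28 members above the floor on both arrays, against -0.03 over all such genes. Dim genes pass 2-fold more often: 5.20% of genes with a mean level under 30 were at least 2-fold higher in knockout heart, against 3.75% between 30 and 100 and 2.73% from 100 upward. Of the members, 3 of 20 under 30, 1 of 6 between 30 and 100, and 0 of 5 from 100 upward passed 2-fold.

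Among the G1 cyclins, Ccnd1, which encodes cyclin D1, read 511.7 in knockout heart and 257.1 in control heart on its brightest probe set, 1.99-fold higher and just short of 2-fold. Its other probe sets read 465 in the knockout and 198 in control heart, and 229 in the knockout and 119 in control heart. The log2 difference was between 0.94 and 1.23 on the 3 probe sets, a mean of 1.05 with an SD of 0.16, so all of them placed knockout above control. Ccnd2, cyclin D2, was the brightest member in heart, at 892 in the knockout and 617 in the control, 1.45-fold higher. Its 7 probe sets covered signals from 21.7 to 892 and all of them were higher in knockout heart, with log2 differences from 0.28 to 0.67 (mean 0.49, SD 0.14). The E-type cyclins were dim. Ccne1 read 12.8 in the knockout and 11.7 in control heart and Ccne2 13.0 in the knockout and 17.4 in control heart, log2 differences of 0.14 and -0.42, and the second probe set of Ccne1 was lower in the knockout at -0.39.

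Among the replication genes, Rrm2, the S-phase subunit of ribonucleotide reductase, read 45.6 in knockout heart and 15.6 in control heart, 2.92-fold higher. Its other probe sets read 26.9 in the knockout and 9.01 in control heart, and 18.7 in knockout heart with control heart at the floor, so the 3 gave log2 differences of 1.54, 1.58 and at least 1.32. Its partner Rrm1, the large subunit, read 57.5 in the knockout and 61.0 in control heart, a log2 difference of -0.09. Mcm5, a helicase subunit, read 29.2 in the knockout and 12.8 in control heart, 2.27-fold higher, but a second probe set read 8.48 in the knockout and 15.9 in control heart, a log2 difference of -0.91. The probe sets of Mcm5 therefore disagree in direction, and the one that is higher in the knockout is of a type that can share sequence with other transcripts.

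The other helicase genes differed by less than 2-fold between the heart arrays on their brightest probe sets. Mcm4 and Mcm3 were higher in the knockout, by 0.42 and 0.68 on the log2 scale, and each was on the same side on all measured probe sets, 2 for Mcm4 and 4 for Mcm3. The other measured probe sets of Mcm3 gave 0.10, 0.06 and at least 1.26, the last with control heart at the floor. The brightest probe set of Mcm3 is of a type that can share sequence with other transcripts. The Mcm2, Mcm6 and Mcm7 signals differed by -0.17, -0.01 and -0.14, although the other 3 probe sets of Mcm7 were above 0. Pcna, the clamp, was the brightest replication gene, at 518 in the knockout and 589.9 in control heart, a log2 difference of -0.19. Tk1, cytosolic thymidine kinase, was at the floor in knockout heart and read 11.7 in control heart, at least 1.56-fold lower. The median over the 10 measured replication genes was -0.05, the same to 2 decimals as that over all genes measured.

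Among the mitosis genes in heart, 14 of 17 measured members were above 0 and 3 below, with a median of 0.37. Mki67, which encodes the proliferation antigen Ki-67, read 43.2 in the knockout and 20.9 in control heart on its only probe set, 2.07-fold higher. Aurka, the Aurora A kinase of the spindle poles, read 19.5 in knockout heart and 7.48 in control heart, which is just under the floor, so it was at least 2.6-fold higher. Cenpa, the histone H3 variant of the centromere, was by far the brightest mitosis gene in heart, at 308 in the knockout and 166 in the control, 1.85-fold higher, while its other probe sets lay at or near the floor, the only one measured in heart being lower in the knockout at -0.22. The S and M phase regulators Ccna2, cyclin A2, and Cdk1 read 26.2 and 30.1 in knockout heart and 16.2 and 19.1 in control heart, 1.61-fold and 1.58-fold higher. A second probe set of Ccna2 barely differed, at 20.9 in the knockout and 20.1 in control heart, a log2 difference of 0.06. Top2a, the topoisomerase that untangles sister chromatids, read 23.6 in the knockout and 16.2 in control heart.

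Plk1, the Polo kinase, ran the other way among the mitosis genes, at 9.19 in the knockout and 17.8 in control heart, 1.93-fold lower. Cdc20, an activator of the anaphase-promoting complex, read 36.1 in the knockout and 37.5 in control heart, a log2 difference of -0.06, and 0.32 on a second probe set. The remaining measured genes (Ccnb2, Birc5, Nusap1, Prc1, Cenpe, Aurkb, Kif11, Cdca8 and Kif20a) did not exceed 17.4 on either heart array, with log2 differences from -0.07 to 0.60. The checkpoint genes Bub1 and Bub1b were at the floor in both hearts. Counting probe sets instead of genes, 8 of 60 measured in heart (13.3%) passed 2-fold upward in the knockout (3.80% of all probe sets) and 0 passed it downward (4.51% of all). Of 18 members with several measured probe sets in heart, 7 were higher in the knockout on all of them, 3 lower on all and 8 mixed.

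**Figure D2:**
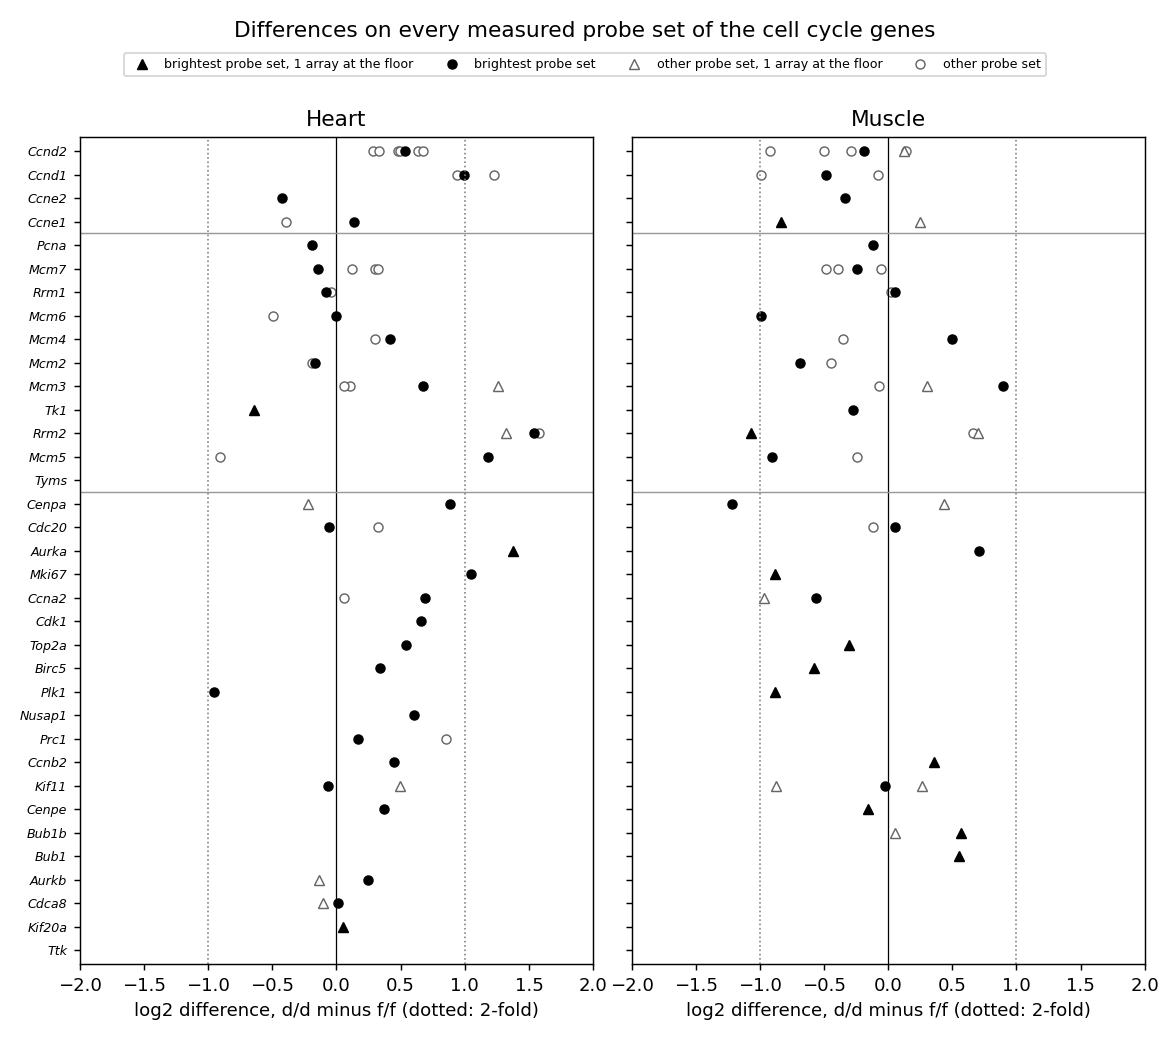
Log2 difference, knockout minus control, on each measured probe set of the members, heart on the left and muscle on the right; filled symbols are the brightest probe set, open symbols the others, and triangles have 1 array at the floor, so that their fold is a lower bound. In heart all probe sets of Ccnd1, Ccnd2 and Rrm2 lie right of 0, while those of Mcm5 and Cenpa lie on both sides.

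Markers of other cell types also differed between the heart arrays. Of 14 macrophage markers 13 were above 0, with a summed intensity of 3481 in the knockout and 2528 in control heart. Of 11 fibroblast markers 10 were above 0, with sums of 9909.9 in the knockout and 5465 in control heart, and of 10 endothelial markers 8, with sums of 2687 in the knockout and 2123 in control heart. All markers of these 3 lists were above the floor on both heart arrays. Lymphocyte markers were almost absent, with 3 of 9 above the floor on each heart array and sums of 53.2 in the knockout and 51.1 in the control. The 8 satellite cell and myoblast markers summed to 38.8 in the knockout and 82.8 in control heart. Of these, 2 were above the floor in knockout heart and 6 in control heart, so the sums rest largely on signals near or under the floor. The 10 cardiomyocyte markers had a median log2 difference of -0.12. Of 10 fast skeletal muscle markers 7 were measured in heart, all of them below 0 and 3 at least 2-fold lower, with a median of -0.90. Only 3 of the 7 were above the floor on both heart arrays, and 2 of the 3 lower calls had the knockout at the floor. The sums of the list were 4143 in the knockout and 4389 in control heart. They were mostly Ckm, muscle creatine kinase, at 4097 in the knockout and 4256 in control heart. The part of these cells in the cell cycle differences was not tested.

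In muscle the members were dimmer and, on the whole, lower in the knockout than in the control. Of 27 measured members, 2 were at least 2-fold lower in knockout muscle (7.41%), against 3.25% of the 14256 genes measured, and 0 were at least 2-fold higher, against 2.64%. Both, Rrm2 and Cenpa, were among the 16 members with a mean level under 30, where 6.33% of all genes passed 2-fold in this direction. The median over the 27 was -0.27, against -0.003 over all genes measured, and -0.24 over the 17 members above the floor on both arrays. Of 52 measured probe sets 2 were at least 2-fold lower (3.28% of all probe sets) and 0 at least 2-fold higher (3.04% of all).

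Cenpa read 8.06 in the knockout and 18.8 in control muscle, 2.33-fold lower, and a dimmer probe set read 10.1 in the knockout with the control at the floor. Rrm2 was at the floor in the knockout and read 15.8 in control muscle on its brightest probe set, at least 2.10-fold lower. Its other probe sets read 14.2 and 12.2 in knockout muscle, against 8.93 and a signal at the floor in control muscle, so that they were higher in the knockout and the direction of Rrm2 in muscle depended on the probe set; the brightest is of a type that can share sequence with other transcripts. All of the 3 probe sets of Ccnd1 were lower in knockout muscle, with log2 differences from -0.99 to -0.08; the brightest read 51.4 in the knockout and 71.9 in the control. Ccnd2 read 75.6 in the knockout and 86.0 in control muscle, with 4 of 6 measured probe sets below 0.

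**Figure D3:**
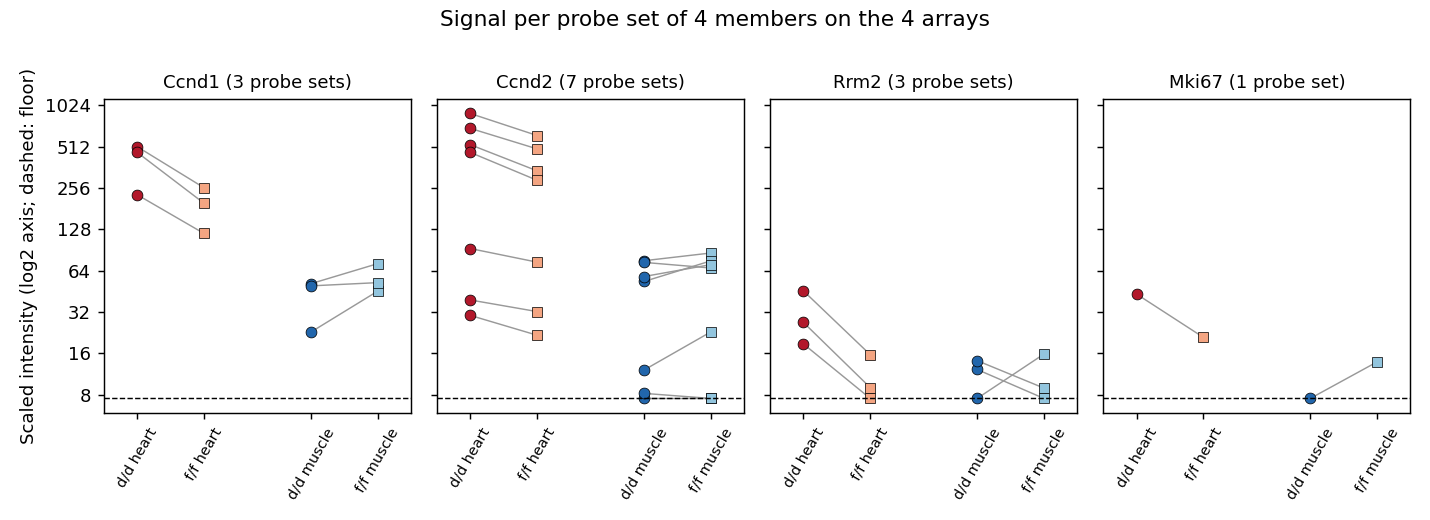
Scaled intensity (log2 axis) of every probe set of Ccnd1, Ccnd2, Rrm2 and Mki67 on the 4 arrays, knockout (d/d) left of control (f/f) within each tissue, with lines joining the values of 1 probe set; the dashed line is the floor. All lines slope down to the control in heart, while in muscle those of Ccnd1 slope up and those of Ccnd2 and Rrm2 run both ways.

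Of the helicase genes in muscle, Mcm6 read 28.3 in the knockout and 56.4 in the control, 1.99-fold lower, Mcm2 27.1 in the knockout and 43.6 in the control, and Mcm5 7.94 in the knockout and 14.9 in the control. Mcm3 and Mcm4 ran the other way, at 33.2 and 51.4 in knockout muscle and 17.9 and 36.4 in control muscle, log2 differences of 0.89 and 0.50, although each had another probe set below 0. Mcm7 was lower on all 4 of its probe sets, by up to 0.48 on the log2 scale. Pcna (361 in the knockout, 392 in the control), Rrm1 (132.8 in the knockout, 127.8 in the control) and Tk1 (30.03 in the knockout, 36.3 in the control) differed by -0.12, 0.06 and -0.27. The replication list had a median of -0.26 over 10 measured genes.

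Only 5 of 20 mitosis genes were above the floor on both muscle arrays, namely Aurka, Ccna2, Cdc20, Cenpa and Kif11. Aurka was the brightest of them, at 50.4 in the knockout and 30.8 in control muscle, 1.64-fold higher in the knockout, as it was in heart. Mki67, Plk1, Birc5 and Top2a were at the floor in knockout muscle and read 13.9, 13.9, 11.2 and 9.28 in control muscle. Bub1 and Bub1b showed the opposite, at 10.99 and 11.1 in knockout muscle and at the floor in control muscle. The mitosis list had a median of -0.15 over 13 measured genes. All 4 G1 cyclins were below 0, with a median of -0.41.

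The markers that were higher in knockout heart were in part lower in knockout muscle. All 13 measured macrophage markers were below 0 there, with sums of 943 in the knockout and 1464 in control muscle, and so were all 11 fibroblast markers, with sums of 3990.2 in the knockout and 6045 in control muscle. Of 10 endothelial markers 6 were above 0. Of 10 cardiomyocyte markers, 8 were measured in muscle, all of them below 0 and 6 at least 2-fold lower, with a median log2 difference of -1.73. Their sums of 2658 in the knockout and 3697 in control muscle were mostly Actc1, cardiac actin, at 2241 in the knockout and 2265 in the control, while Tnni3, cardiac troponin I, read 8.30 in the knockout and 86.8 in the control. Of 7 measured satellite cell and myoblast markers 5 were above 0, with sums of 228 in the knockout and 239 in control muscle. The part of these cells in the muscle values was not tested.

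Between the tissues, the D-type cyclins, Cenpa and Cdk1 were higher in heart, and Tk1, Aurka, Ccne2 and Rrm1 were higher in muscle. This was tested with limma over all 4 arrays and 13497 genes, with genotype as a covariate and 1 residual degree of freedom. Of 30 members tested, 4 were higher in heart and 4 lower at an adjusted p under 0.05 (Benjamini-Hochberg), against 7.97% and 5.66% of all genes. Ccnd2 was higher in heart by 3.20 on the log2 scale (SE 0.30, limma adjusted p = 0.0037) and Ccnd1 by 2.58 (SE 0.41, adjusted p = 0.017). Cenpa was higher by 4.20 (SE 0.52, limma adjusted p = 0.0084) and Cdk1, which was at the floor on both muscle arrays, by 1.68 (SE 0.29, adjusted p = 0.023). Tk1 differed by -1.81 (SE 0.27, limma adjusted p = 0.015), Aurka by -1.70 (SE 0.30, adjusted p = 0.022), Ccne2 by -1.34 (SE 0.26, adjusted p = 0.030) and Rrm1 by -1.14 (SE 0.26, adjusted p = 0.045). In each of these 8 genes both heart arrays lay on the same side of both muscle arrays. Tk1 was at the floor in knockout heart, Aurka in control heart and Cdk1 on both muscle arrays, so their effects depend on the floor. Cdk1 entered the fit only through its 2 heart arrays, and its equal floored muscle values add no spread. Its adjusted p-value is therefore not taken as support for a difference. With a 20th percentile floor, or with all genes entered, limma called 0 genes and 0 members, with 14 members at an unadjusted p under 0.05 in each case.

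For the knockout minus control effect averaged over both tissues, the same limma fit called 0 of 13497 genes (0%) and 0 of 30 members, with 570 genes and 3 members (Aurka, Plk1 and Mcm3) at an unadjusted p under 0.05. Aurka was higher in the knockout in both tissues, with a mean log2 difference of 1.04 (SE 0.30, limma adjusted p = 1). Mcm3 was also higher in both on its brightest probe set, by a mean of 0.79 (SE 0.26), and Plk1 was lower in both, by a mean of -0.92 (SE 0.26), neither past the adjustment. This average takes any difference between heart and muscle in the knockout minus control effect as error.

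Other genes of the cell cycle were read as whole lists, and their medians in heart lay between -0.25 and 0.14. Of 40 further mitotic genes, 32 were measured, 2 at least 2-fold higher in knockout heart and 2 lower, with a median of 0.14. Beside this and the list counts that follow for heart, 3.94% of all genes measured were higher and 4.22% lower by that measure. Racgap1, a cytokinesis regulator, read 30.4 in the knockout and 13.8 in control heart, and Anln, anillin of the contractile ring, 21.6 in the knockout with the control at the floor. Cenpf, a kinetochore protein, was 4.02-fold lower, at 20.1 in the knockout and 80.9 in control heart, and lower again on a second probe set, which was at the floor in the knockout and read 23.1 in the control. The kinesin Kif2c was at the floor in the knockout and read 15.4 in control heart.

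Of 34 genes of origin licensing and firing, 31 were measured in heart, 0 at least 2-fold higher and 1, the origin recognition gene Orc1, lower, with a median of -0.25. Of 18 measured pocket protein, E2F and MuvB genes 0 were higher and 1, Lin52, lower, with a median of -0.07, and E2f1 and Foxm1 were near the floor, at 8.22 and 12.0 in knockout heart and 8.33 and 10.9 in control heart. Of 10 measured kinase, cyclin D3 and CDC25 genes 0 passed 2-fold, and the partner kinase Cdk4 read 129 in the knockout and 152 in control heart. Of 6 measured CDK inhibitors 1 passed 2-fold: Cdkn2b, which encodes p15, an inhibitor of the cyclin D kinases, read 30.6 in the knockout and 9.18 in control heart, 3.33-fold higher on its only probe set. Cdkn1a, which encodes p21, read 105 in the knockout and 66.1 in control heart, a log2 difference of 0.66. The other 4 measured inhibitors were below 0, the lowest at -0.90, and the median of the list was -0.10.

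In muscle these lists had medians of -0.21 for further mitotic genes, 0.01 for origin genes, 0.16 for pocket protein and E2F genes, 0.06 for kinases and -0.20 for CDK inhibitors. Of their 97 measured genes, 4 were at least 2-fold higher and 2 lower in knockout muscle. Of all 14256 genes measured in muscle, 2.64% were higher and 3.25% lower by that measure. Higher were the replicative polymerase gene Pole (24.9 in the knockout, 8.48 in the control), the primase gene Prim2 (18.8 in the knockout, 9.28 in the control, with another probe set the other way at -0.81), the kinetochore gene Spc24 (31.1 in the knockout, 14.8 in the control) and the CDK1 inhibitory kinase Pkmyt1 (28.6 in the knockout, at the floor in the control). Lower were Cdk6 (17.0 in the knockout, 39.7 in the control), which was higher in the knockout on another probe set, and Kif23, at the floor in the knockout and 16.2 in the control.

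**Figure D4:**
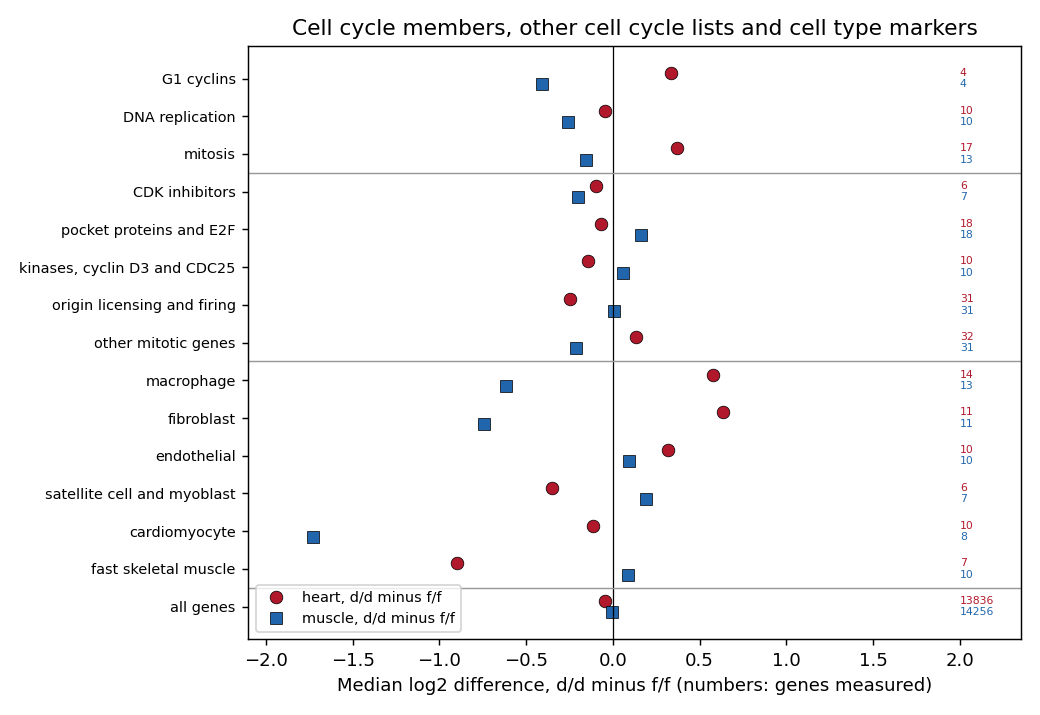
Median log2 difference, knockout minus control, of the members by class, of other cell cycle lists and of cell type markers, with heart as circles and muscle as squares, and the number of genes measured at the right. Mitosis members and G1 cyclins have medians of 0.37 and 0.34 in heart and -0.15 and -0.41 in muscle, macrophage and fibroblast markers likewise lie right of 0 in heart and left of it in muscle, and replication members lie near 0 in heart.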

How the data were processed

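The authors deposited 1 linear intensity per probe set and array; the scanning software and any scaling behind them are not given in the sources used here. Control probe sets (64) were left out, all arrays were rescaled to 1 common 2% trimmed mean, signals under a floor (7.51, the mean 40th percentile) were set to it, and log2 was taken. The arrays had trimmed means of 48.2 to 69.2 as deposited, and 58.0% to 61.1% of probe sets lay above the floor; with 1 array a group the number of arrays limits the precision. Names came from the platform annotation, checked by Entrez id against a RefSeq table: 34945 of 45037 had 1 symbol, 932 several and 9160 were not listed. For each of the 18193 genes the brightest probe set by mean log2 signal was used. It was measured where at least 1 array of the pair exceeded the floor, and counted as higher or lower at a 2-fold difference or more; where 1 array was at the floor, the fold given is the least it could be. The tissue and genotype terms were fitted with limma 3.58.1 in R 4.3.3 over genes that exceeded the floor on 2 or more arrays, adjusted after Benjamini and Hochberg, and the fit was tested on simulated data. Groups came from the titles and the tissue label, and the labels name no batch. The members, lists and rules were chosen with earlier results of these data known. All members were accounted for; of the other cell cycle lists, up to 4 genes past 2-fold a list and tissue could be named, and E2f1, Foxm1, Cdk4 and Cdkn1a were chosen after their values were seen. Alternatives were other scalings, floors, probe set choices and a 1.5-fold threshold.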

Additional observations from a re-analysis of the deposited data

Results flagged for a closer look

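Rrm2 was past 2-fold in opposite directions in the tissues, with a knockout minus control log2 difference of 1.54 in heart and of -1.07 in muscle, where the knockout was at the floor. The difference between the tissues was not tested, since each rests on 1 array a group. The other probe sets of Rrm2 were higher in the knockout in both tissues, at 1.58 in heart and 0.66 in muscle on one, and at least 1.32 in heart and at least 0.70 in muscle on the other, whose control arrays were at the floor.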

How the results depend on the processing

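Of the 31 members measured in heart, 23 kept their direction under every scaling, floor and probe set choice that gave a value, and 24 of 27 in muscle. In heart, Ccnd1, Ccnd2, Rrm2, Mki67 and Aurka were among them. These counts are a weak check, because a change of floor cannot reverse the difference on a given probe set. Mki67 and Aurka had only 1 measured probe set in heart, so the probe set choices could not turn them either. With a 60th percentile floor, however, Aurka in heart fell from 1.38 to 0.04 on the log2 scale, no longer past 2-fold. Without probe sets that can share sequence or detect several transcripts, Mcm5, Cenpa and Cdca8 in heart turned to -0.91, -0.22 and -0.10, and Rrm2 in muscle to 0.66, as Rrm2 did with the median over probe sets, also 0.66. Without such probe sets Mcm3 kept its direction but fell from 0.68 to 0.10 in heart and from 0.89 to 0.30 in muscle. The share of all genes past the threshold was not worked out under the alternatives, so the member counts below have no background beside them. The count of members at least 2-fold higher in knockout heart was 4, and 6 with a 20th percentile floor. It was 2 with a 60th percentile floor, where 18 members were measured, and 10 at 1.5-fold. The count lower in knockout heart was 0, and 1 with the values as deposited, 2 with a 20th percentile floor and 2 at 1.5-fold, so with the values as deposited the split was 3 higher and 1 lower, Mki67 being at 0.99 on the log2 scale. In muscle 0 were higher, and 4 with a 20th percentile floor and 2 at 1.5-fold; 2 were lower, and 8 with a 20th percentile floor, 8 at 1.5-fold, and 0 with a 60th percentile floor, with the median over probe sets and without probe sets that can share sequence. With a 60th percentile floor, the median of the G1 cyclins in heart was 0.76 over 2 genes, and that of the mitosis members in muscle 0.71 over 1 gene, Aurka; the other medians moved by at most 0.2. For the tissue difference, limma called 1840 genes and 8 members, 3341 and 15 with the values as deposited, and 0 and 0 with a 20th percentile floor or with all genes. The values as deposited put the median tissue difference of all genes at 0.47, against 0.06 after scaling, with 2839 genes higher and 502 lower in heart, against 1076 and 764 after scaling and 641 and 595 after quantile normalization; the cause of the other changes was not tested. The genotype term gave 0 calls under every alternative. No paired analysis was possible because each group has 1 array and the labels give no replicate numbers, and for the same reason no array could be left out. Signals near the floor limit most mitotic genes, in muscle above all.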
